A study of Homo sapiens with 6 samples.

Results

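The genes examined here encode the proteins of the cytosolic ribosome. They were chosen by symbol, as the RPL, RPS, RPLP and RPSA genes of the deposited gene table together with the paralogs whose names end in L or L1. The rule found 86 genes of 57820, 52 of the large subunit and 34 of the small subunit. RNA was sequenced from M14, an established human melanoma cell line, carrying a doxycycline-inducible STAG2 shRNA (shRNA#60). The KD group (3 libraries) received doxycycline, 5 µg/ml, over 5 days, and the WT group (3 libraries) did not. STAG2 is a subunit of cohesin, the ring complex that shapes DNA loops. Both groups carry the same shRNA vector, so the agent that differs is doxycycline, and the effects of doxycycline and of the knockdown cannot be told apart. The study describes its 3 samples per group as biologically independent, and the sources used here do not say how they were kept apart.

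A cytosolic ribosome has a small subunit, which reads the mRNA, and a large subunit, which joins amino acids into protein. Each subunit is built on ribosomal RNA and holds a fixed set of proteins, most of them from a single expressed gene each, so cells make the set in near-equal amounts. Ribosomal protein genes also have very many processed pseudogenes, intronless copies of their mRNA elsewhere in the genome. Their mRNAs usually begin with a C followed by a run of pyrimidines, the terminal oligopyrimidine (TOP) tract, through which the mTOR pathway controls their translation. Some of the genes have a paralog used in particular tissues, such as RPL3L in heart and skeletal muscle and RPL10L and RPL39L in testis.

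The start sites of several genes are shown because this shared letter pattern sets the family apart and because some of the paralogs do not have it. Each window holds 15 bases before the RefSeq start site and 15 bases from it onward (build GRCh38.p14, 5′ to 3′ on the strand of the gene). Capitals mark the tract, defined as a C at position 16 of the window, the annotated start, followed by at least 4 bases that are C or T.
RPLP0: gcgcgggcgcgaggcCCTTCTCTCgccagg
RPS16: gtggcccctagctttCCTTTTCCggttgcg
RPSA: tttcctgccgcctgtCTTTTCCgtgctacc
RPL36A: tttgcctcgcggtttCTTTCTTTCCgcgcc
RPL22: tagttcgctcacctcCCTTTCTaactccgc
RPL22L1: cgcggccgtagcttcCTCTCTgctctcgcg
RPL26: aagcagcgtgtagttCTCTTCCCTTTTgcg
RPL26L1: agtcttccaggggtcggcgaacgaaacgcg
RPS27: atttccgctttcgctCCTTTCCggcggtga
RPS27L: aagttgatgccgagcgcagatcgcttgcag
RPL7L1: cggaagtgcggcgccgtagctaggagcgga
RPL22 and its paralog RPL22L1 both begin with a tract, whereas RPL26 and RPS27 have one and their paralogs RPL26L1 and RPS27L have none in these windows. The RPLP0 window lies at chr12:120201097-120201126 on the minus strand, with a tract of 9 bases, and the RPL26 tract runs over 12 bases. RefSeq listed a start for 67 of the 86 genes, and 47 of these (70.1%) had a tract at the start, against 4.98% of the other 27238 genes in the same table. The share was 69.0% among large subunit genes and 72.0% among small subunit genes. Only the strand of the gene was searched. The windows describe the annotated start, not the start used in these cells.

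STAG2 itself checks the labels. It was at 66.5, 34.8 and 28.8 CPM (counts scaled to the library total with edgeR's TMM factors) in WT and at 16.0, 7.31 and 6.70 CPM in KD, given here and throughout in the order of the replicate numbers 1 to 3. All KD libraries lay below all WT libraries, with a log2 fold change of -2.12 (SE 0.43, adjusted p = 0.0342, edgeR's quasi-likelihood test, adjusted by Benjamini-Hochberg over 15605 genes). The adjusted p was between 0.0652 and 0.168 without WT replicate 2, WT replicate 3, KD replicate 2 or KD replicate 3, and 0.000104 with the replicate block. Library totals ran from 24895998 to 35181733 expected counts, and 3 counts, taken as the floor, equalled 0.0853 to 0.121 CPM, a limit for counting error only. WT replicate 1 stood apart, with 5.07% of its counts from mitochondrial genes against 2.12% to 2.94% in the others. The summed CPM of 10 melanocyte markers was 6824 in that library, 1769 to 1896 in the other WT libraries and 1205 to 2882 in KD, and 9 of the 10 had a negative log2 fold change, of which 0 passed in edgeR (2 lower and 0 higher at an unadjusted p under 0.05) and 6 fell with the replicate block described below. Their part in the results was not tested. Of 12 markers of other cell types, 11 were in the table and 5 passed the filter on low counts, and 1, CD68, rose. Their summed CPM was 33.0 to 47.5 in WT and 90.9 to 136.6 in KD, of which CD68 made up most. The T cell gene CD3E was at 0 in every library and the leukocyte gene PTPRC was above 0 only in WT replicate 3, with 16 counts.

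The ribosomal protein genes took up a smaller share of the RNA in KD than in WT cells on average, with groups that overlapped. Their summed counts were 9.93%, 7.31% and 9.42% of the library in WT and 7.85%, 6.88% and 6.37% in KD. The mean was 8.88% ± 1.39 in WT and 7.04% ± 0.751 in KD (SD, n = 3). WT replicate 2 lay below KD replicate 1, so the groups overlapped. Within the numbered pairs the share was lower in KD each time, with changes of -20.9%, -5.81% and -32.3% of the WT value. A share is relative to all other RNA in a library, and fewer cells of one type cannot be told apart from less RNA per cell in bulk samples.

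Both subunits were lower in KD in each numbered pair, and relative to its WT value the small subunit was lower by more. Large subunit genes took 5.56%, 4.43% and 5.52% of the counts in WT and 4.55%, 4.28% and 3.93% in KD. Small subunit genes took 4.37%, 2.87% and 3.90% in WT and 3.30%, 2.60% and 2.44% in KD. The ratio of large to small subunit counts was 1.27, 1.54 and 1.41 in WT and 1.38, 1.64 and 1.61 in KD. It was higher in KD in all 3 pairs, by 8.31%, 6.5% and 14.1%, while the group means of 1.41 ± 0.136 and 1.54 ± 0.145 (SD, n = 3) differed by 0.135, no more than the SD of either group. The spread among replicate numbers exceeded the difference between conditions, as the plot of shares and ratios by library shows. On the log2 scale the ratio differed by 0.13, by 0.06 without WT replicate 1, the library that stood apart, by 0.09 without KD replicate 2, by 0.20 without WT replicate 2 and by 0.21 without KD replicate 1.

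**Figure D1:**
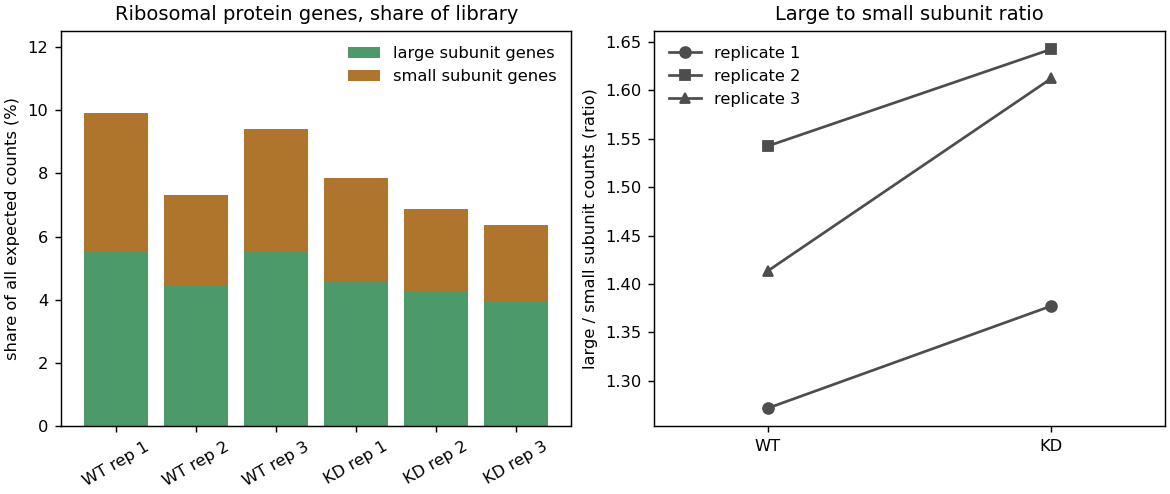
Share of all expected counts (%) taken by large and small subunit genes in each of the 6 libraries (left, stacked bars), and the ratio of large to small subunit counts (right, lines join libraries with the same replicate number). The summed share falls from WT to KD and the ratio rises in all 3 numbered pairs, while WT replicate 2, at 7.31%, lies below KD replicate 1, at 7.85%.

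Gene by gene, most ribosomal protein genes shifted down by a small amount and few passed a test on their own. The filter kept 83 of the 86 genes, 50 of the large and 33 of the small subunit, and 1 of them fell at an adjusted p under 0.05, against 0.839% of all tested genes called lower. None rose, against 1.75% of all tested genes called higher. At an unadjusted p under 0.05, 16 were lower and 0 were higher (background 6.98% lower and 7.77% higher). By DESeq2, 5 fell and 0 rose (background 2.5% lower and 3.13% higher). The log2 fold change was below 0 for 67 of the 83 (80.7%), against 52% of all tested genes. The values of KD lay wholly below those of WT for 21 genes (25.3%, against 10.5% of all tested genes) and wholly above for 1 (background 11.8%). Among genes of at least 100 CPM on average, the range in which most of the family lies, 12.4% lay wholly below.

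The libraries carried shared replicate numbers, and libraries with the same number deviated together, so a model with the replicate number as a block was also fitted. In it 8 of the 83 genes fell (9.64%, background 4.42%, 8.06% at 100 CPM or more) and 0 rose (background 5.1%). They included RPLP0, RPL7, RPS16, RPL5, RPSA and RPS29, with adjusted p from 0.00588 to 0.0487 in edgeR's test. A further 13 genes had an adjusted p between 0.05 and 0.1, led by RPL6 at 0.0505. In all 3 numbered pairs, 33 genes were lower in KD (39.8%, background 22.8%, 27.7% at 100 CPM or more) and 4 were higher (background 23%). The lowest of all 6 values lay in KD replicate 3 for 47 of the 83 genes.

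The median log2 fold change was -0.15 over the 50 large subunit genes and -0.36 over the 33 small subunit genes, against -0.03 over all tested genes and 0.00 over those of at least 100 CPM. Of the small subunit genes 31 were below 0, and RPS24 and RPS27L were the exceptions. Of the large subunit genes 36 were below 0. Groups did not overlap in the downward direction in 14 of 50 large (28%) and 7 of 33 small subunit genes (21.2%). The background was 10.5%, and 12.4% at 100 CPM or more. With the block, 3 large (6%) and 5 small subunit genes (15.2%) fell (background 4.42%, and 8.06% at 100 CPM or more). Without WT replicate 1 the medians were -0.21 for the large and -0.33 for the small subunit, and 1 gene fell in edgeR. The difference between the subunits is a description with no test, since genes are not replicates.

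**Figure D2:**
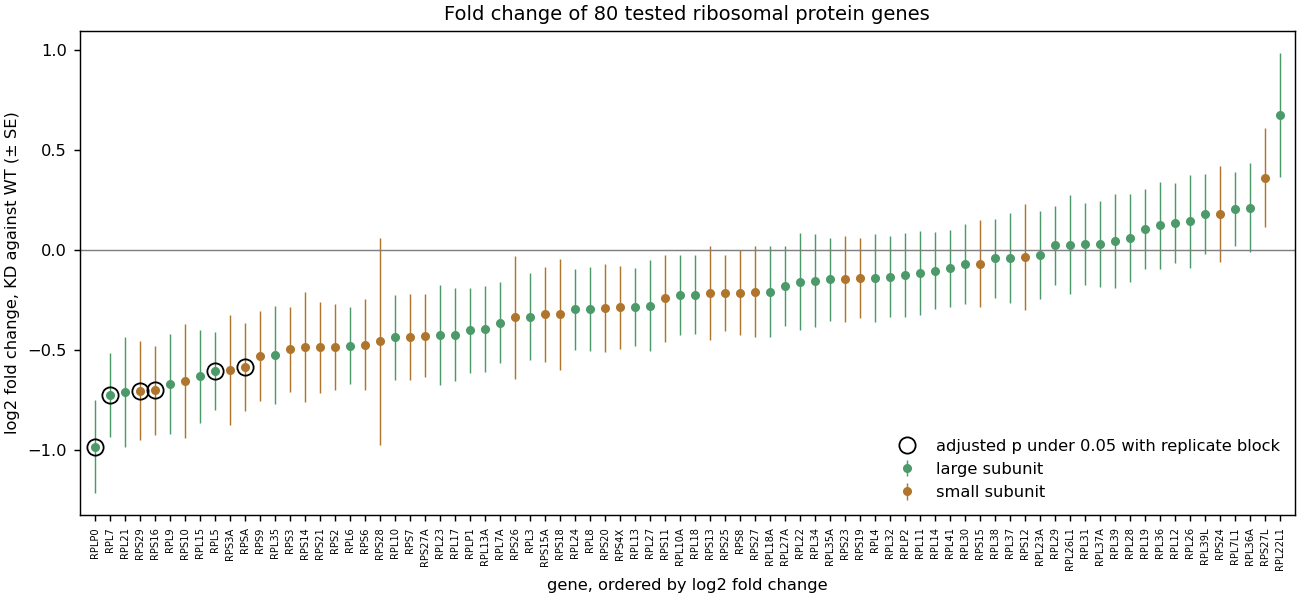
Log2 fold change of KD against WT with its SE for 80 of the tested genes, in order of size and coloured by subunit. Most points lie below 0, with RPLP0 the lowest shown at -0.98 and RPL22L1 the highest at 0.67, and circles mark the 6 shown genes that fell in the model with a replicate block.

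RPLP0, the protein at the base of the stalk that recruits translation factors to the large subunit, had the lowest log2 fold change among the family's genes of at least 100 CPM. It lies on chromosome 12 at positions 120634502 to 120639038 (GRCh37, minus strand). It was at 4773, 3322 and 4703 CPM in WT and at 2174, 2421 and 1886 CPM in KD. Every KD library lay well below every WT library. The log2 fold change was -0.98 (SE 0.23), with an adjusted p of 0.0613 in edgeR and of 0.00588 with the replicate block. It passed the threshold by DESeq2 (adjusted p = 0.000517) and by limma-voom (adjusted p = 0.0426). The other stalk proteins moved less. RPLP1 had a log2 fold change of -0.40, RPLP2 one of -0.12 and RPL12, which sits at the base of the stalk, one of 0.13, and only RPLP1 and RPLP0 had groups that did not overlap.

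RPL5 and RPL11 bind the shortest ribosomal RNA of the large subunit and, when free of the ribosome, the p53 regulator MDM2. RPL5 was at 707, 600 and 789 CPM in WT and at 478, 467 and 433 CPM in KD, with no overlap (log2 fold change -0.60, SE 0.19, adjusted p = 0.164 in edgeR and 0.0304 with the block). Its partner RPL11 had a log2 fold change of -0.12, and its groups overlapped.

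RPL7 was at 330, 364 and 336 CPM in WT and at 176, 261 and 186 CPM in KD. All WT libraries were high and close together, and the KD values lay below them (log2 fold change -0.72, SE 0.21, adjusted p = 0.127 in edgeR and 0.0115 with the block). Nearly all of its coding sequence, 99.7% of the 50-base stretches, also occurs in other genes or pseudogenes. RPL6 was at 676, 731 and 766 CPM in WT and at 449, 581 and 531 CPM in KD, also without overlap (log2 fold change -0.48, adjusted p = 0.0505 with the block in edgeR). RPL21 was among the largest falls by size at -0.71, but at only 24.2, 32.0 and 45.9 CPM in WT and 20.9, 23.7 and 17.8 CPM in KD, and all of its coding stretches are shared.

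In the large subunit, none of 8 genes for proteins lining or ringing the tunnel through which new protein leaves fell, even with the block. With the block 3 of the 50 large subunit genes fell (6%, background 4.42%), so 0 of 8 does not set these genes apart. RPL4, RPL17 and RPL39 line it and had a median of -0.14, and RPL19, RPL23A, RPL26, RPL31 and RPL35 at its rim had a median of 0.03. RPL35, at -0.53, and RPL17, at -0.42, were the lowest, and the groups overlapped in all 8. RPL3, which helps form the peptidyl transferase centre, was at 1402, 1310 and 1389 CPM in WT and 863, 1322 and 1070 CPM in KD. RPL10, which joins late in large subunit assembly, was lower in every KD library, at 2159, 2051 and 2644 CPM in WT and 1514, 1920 and 1630 CPM in KD (log2 fold change -0.44, adjusted p = 0.385 in edgeR).

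In the small subunit, RPS16 and RPS29, which encode proteins of the head, fell with the block. Of the head genes, RPS10, RPS15, RPS16, RPS18, RPS19, RPS20 and RPS29 had negative log2 fold changes, from -0.70 in RPS29 to -0.07 in RPS15. Other genes of the head are not listed here. A negative value was not particular to the head, as 31 of the 33 small subunit genes tested had one (93.9%). These groups by place in the ribosome were put together after the values had been seen.

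RPS16 (chromosome 19, 39923777 to 39926589, GRCh37, minus strand), which reaches towards the decoding centre, was at 1920, 1348 and 2035 CPM in WT and at 1064, 1156 and 1041 CPM in KD. The KD values were tight and all below WT (log2 fold change -0.70, SE 0.22, adjusted p = 0.156 in edgeR and 0.0277 with the block). RPS29, a short zinc-binding head protein, was at 462, 285 and 443 CPM in WT and at 284, 254 and 192 CPM in KD. The nearest values, 285 in WT replicate 2 and 284 in KD replicate 1, almost touched (log2 fold change -0.70, adjusted p = 0.204 in edgeR and 0.0487 with the block). RPS10 was of like size at -0.65, with overlapping groups at 2534, 1261 and 2106 CPM in WT and 1529, 1179 and 1046 CPM in KD.

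RPSA, the laminin receptor precursor that sits at the platform side of the small subunit, was at 2885, 2399 and 3574 CPM in WT and at 2016, 2059 and 1834 CPM in KD. No KD library reached the lowest WT library (log2 fold change -0.58, SE 0.22, adjusted p = 0.24 in edgeR and 0.0483 with the block). RPS2 and RPS3 lie at the channel where mRNA enters, and both were lower in all KD libraries. RPS2 was at 4670, 4021 and 5352 CPM in WT and at 3748, 3173 and 3116 CPM in KD, with a log2 fold change of -0.48 and an adjusted p of 0.332 in edgeR and 0.0553 with the block. RPS3 had a log2 fold change of -0.50 and a blocked adjusted p of 0.0649.

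**Figure D3:**
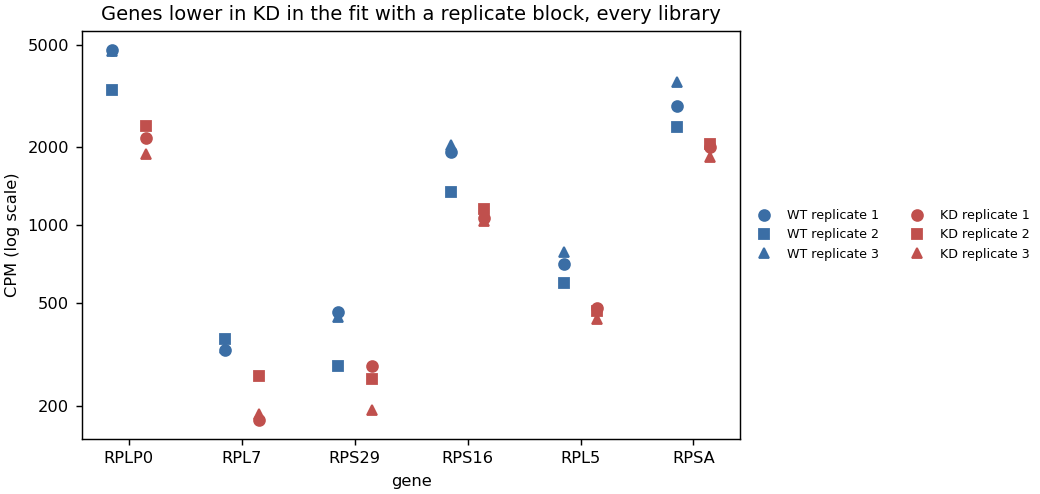
CPM (log scale) in every library of 6 genes that fell in the model with a replicate block, with WT in blue, KD in red and the replicate number by the shape of the point. In each gene all 3 KD points lie below all 3 WT points, closest in RPS29 at 284 against 285 CPM.

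The 5 genes with the most counts were RPS2, RPL13A, RPLP0, RPLP1 and RPSA, which held 20.1% of all counts of the family. These counts are not divided by gene length and so do not rank the genes by molecules. All 5 had groups that did not overlap, lower in KD (25.3% of the family, background 10.5%, 12.4% at 100 CPM or more). RPL13A was at 3842, 3465 and 4783 CPM in WT and at 2933, 3343 and 2930 CPM in KD, a log2 fold change of -0.39. RPLP1 was at 3265, 2657 and 3587 CPM in WT and at 2478, 2540 and 2182 CPM in KD. Both had an adjusted p over 0.4 in edgeR, at 0.457 and 0.436.

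In 6 pairs a paralog and its partner could be compared as the ratio of their counts within each library, a measure in which library scaling cancels. With 3 libraries against 3, the smallest p a two-sided exact permutation test allows is 0.1, so no pair could reach 0.05. Gene lengths were not taken into account, which affects the level of a ratio but not its change.

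RPL7L1, a nucleolar relative of RPL7, made up 28.5%, 23.9% and 29.0% of the counts of the RPL7 pair in WT and 48.6%, 33.9% and 43.1% in KD. The ratio was higher in every KD library, by 0.95 on the log2 scale (exact permutation p = 0.1, 0.15 adjusted over the 6 pairs). RPL7L1 itself was at 131, 115 and 137 CPM in WT and 166, 134 and 141 CPM in KD, overlapping groups, and RPL7 made most of the difference. RPL22L1, the paralog of the RNA-binding protein RPL22, made up 4.03%, 1.91% and 3.70% of its pair in WT and 7.35%, 4.13% and 5.63% in KD, a difference of 0.90 on the log2 scale (exact permutation p = 0.1, adjusted 0.15).

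RPL22L1 was the 1 gene of the family whose KD values all lay above WT. It was at 12.1, 7.14 and 12.6 CPM in WT and at 19.2, 17.2 and 14.4 CPM in KD (log2 fold change 0.67, SE 0.31, adjusted p = 0.355 in edgeR and 0.15 with the block). Only 4.73% of its coding stretches are shared with another gene. RPL22 was at 289, 367 and 328 CPM in WT and at 242, 400 and 241 CPM in KD, and its groups overlapped.

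RPS27L, a p53 target, made up 5.42%, 7.28% and 5.01% of the counts of its pair with RPS27 in WT and 9.43%, 7.85% and 7.64% in KD, a difference of 0.54 on the log2 scale (exact permutation p = 0.1, adjusted 0.15). RPS27L was at 48.1, 48.6 and 39.5 CPM in WT and at 74.2, 60.6 and 40.3 CPM in KD, with overlap, and none of its coding stretches is shared. RPS27 was at 840, 618 and 750 CPM in WT and 713, 711 and 487 CPM in KD, and all of its coding stretches are shared.

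The other pairs did not separate. RPL39L was at 50.2, 57.6 and 70.2 CPM in WT and at 71.1, 60.2 and 70.4 CPM in KD, and its ratio to RPL39 differed by 0.15 on the log2 scale (exact permutation p = 0.5). RPL26L1 was at 18.7, 19.3 and 28.5 CPM in WT and at 22.6 CPM in each KD library, and its ratio to RPL26 differed by -0.08 (exact permutation p = 0.9). The muscle paralog RPL3L had 2, 0 and 0 counts in WT and 22, 0 and 8 in KD, and RPL10L was at 0 in all 6 libraries, as was RPS10L, so these 3 genes were not tested and no ratio was formed.

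**Figure D4:**
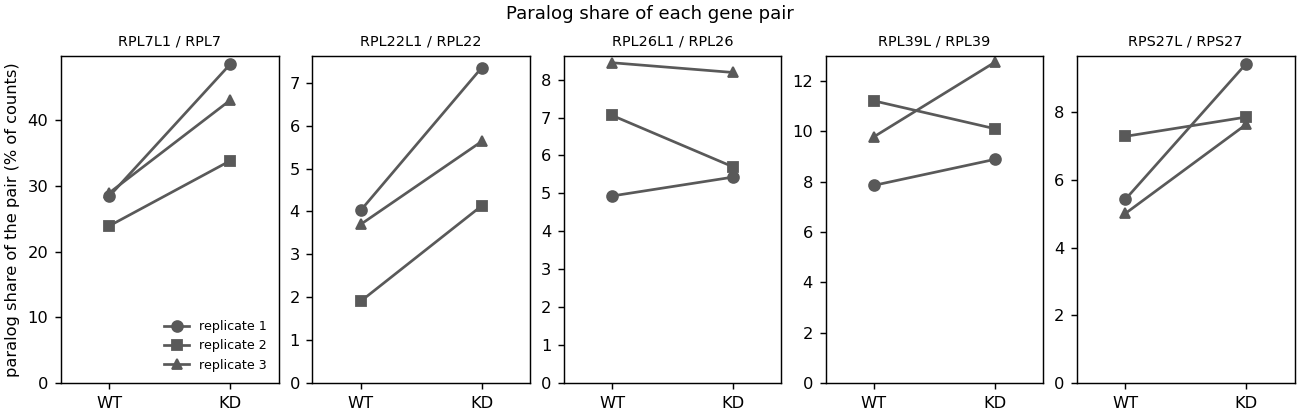
Share of the counts of each pair (%) that came from the paralog, in WT and KD, with lines joining libraries of the same replicate number. RPL7L1, RPL22L1 and RPS27L take a larger share in all KD libraries than in any WT library, whereas RPL26L1 and RPL39L overlap.

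Apart from the paralogs, the highest log2 fold changes were those of RPL36A, at 0.21, and RPS24, at 0.18. RPL36A was at 243, 251 and 300 CPM in WT and 332, 362 and 226 CPM in KD. RPS24 was at 216, 213 and 171 CPM in WT and 267, 259 and 156 CPM in KD. In both genes KD replicate 3 was the lowest of all libraries and the other 2 KD libraries were the highest, so the groups overlapped.

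Longer genes of the family tended to have lower log2 fold changes. Over 82 genes with an annotated coding sequence, the correlation of the log2 fold change with log2 coding length was r = -0.37 (Spearman's rho = -0.43). It was r = -0.44 among 50 large subunit genes and r = -0.26 among 32 small subunit genes. Among the 42 genes of at most 453 coding bases the median log2 fold change was -0.14 and 3 had groups that did not overlap in the downward direction. Among the 40 longer ones the median was -0.38 and 17 had such groups. The background share of such groups was 10.5% of all tested genes, and 12.4% at 100 CPM or more. These points share the same 6 libraries and the correlation describes them only. Over all tested genes the correlation with transcript length was r = -0.02. When each library was corrected for transcript length over all genes, a setting added after the data had been seen, the medians were -0.08 for the large and -0.26 for the small subunit, and 1 tested gene of the family without an annotated length was not in that fit.

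**Figure D5:**
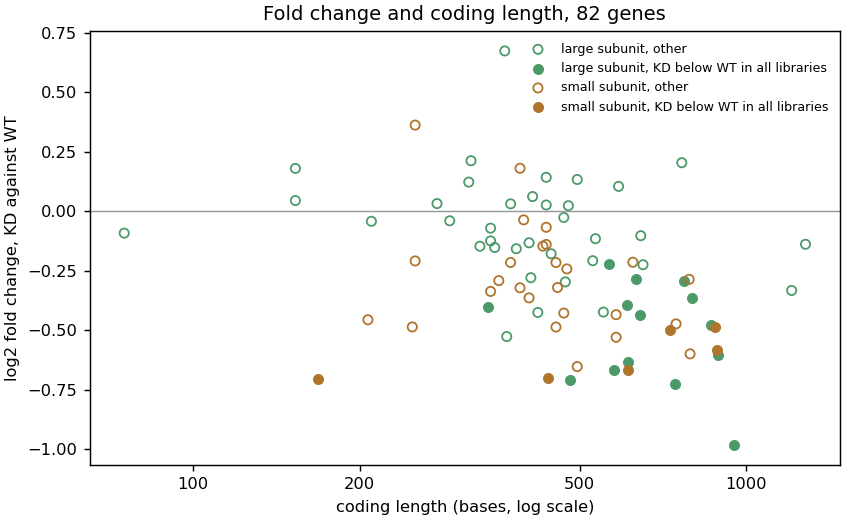
Log2 fold change of KD against WT plotted on coding length (bases, log scale) for 82 genes, with large subunit genes in green and small subunit genes in brown, and filled points where all KD libraries lay below all WT libraries. Filled points sit mostly to the right: 17 of the 40 genes over 453 bases are filled, against 3 of the 42 shorter ones (background 10.5% of all tested genes).

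Much of the family's sequence cannot be assigned to a single gene by a 50-base read. Of the 84 genes with a coding sequence, 9 had every 50-base coding stretch in another annotated gene as well, among them RPL21, RPL36A, RPL39, RPS10 and RPS27, and 24 had at most 20% shared. RPS28 and RPS26 were at 2.33 to 8.01 CPM and 15 to 33.5 CPM over the 6 libraries, and all their coding stretches were shared. Among the 22 tested genes with at most 20% shared, the median log2 fold change was -0.13. Of these 16 were below 0 (72.7%) and 4 were lower without overlap (18.2%). Among the 60 with more the median was -0.29, with 50 below 0 (83.3%) and 16 lower without overlap (26.7%). The background was 52% below 0 and 10.5% lower without overlap. RPS16, with 15.7% shared, was among the less shared genes and fell with the block.

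Genes with and without a TOP tract at the start both lay below 0 in the median. The 47 with a tract had a median log2 fold change of -0.21 and 11 lay wholly below WT (23.4%). The 19 tested genes without one had a median of -0.29 and 4 such genes (21.1%, background 10.5%). Of the 8 genes that fell with the block, 4 had a listed start, and RPLP0, RPS16 and RPSA had a tract there. Over the family, 70.1% of the genes with a listed start had one. Some genes without a tract at the start, such as RPL3, RPL4 and RPL19, had one that began within 5 bases of it. With that allowance the share was 80.6% of the listed genes of the family, against 25.1% of the other genes. The split by tract therefore rests on the exact annotated start.

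Other genes of the translation machinery were read from lists. A list of 21 genes held mainly translation factors, which bring tRNA, mRNA and subunits together. It also held genes outside that class, such as HNRNPA1, NAP1L1, TPT1, NACA, BTF3 and GNB2L1. Of the 21, 0 passed in edgeR (4 lower, HNRNPA1 among them, and 0 higher at an unadjusted p under 0.05). In all, 18 were below 0 (85.7%, against 52% of all tested genes) and the median was -0.19. With the block 2 of the 21 fell (9.52%, background 4.42%, 8.06% at 100 CPM or more). They were EEF1G, a subunit of the elongation factor that recharges EEF1A, and EIF3L, a subunit of initiation factor eIF3. EEF1G was at 2909, 2200 and 2562 CPM in WT and at 1793, 1916 and 1631 CPM in KD, with an adjusted p of 0.0483 with the block. EIF3L was at 285, 316 and 289 CPM in WT and at 196, 225 and 208 CPM in KD, with an adjusted p of 0.044. Like the ribosomal proteins, many translation factors come from mRNAs with a TOP tract.

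The ribosome assembly genes had a median near 0 and lay on both sides of it, more of them above than below. Of 81 such genes, which process ribosomal RNA and build the subunits in the nucleolus, 0 passed in edgeR (1 lower and 2 higher at an unadjusted p under 0.05), 34 were below 0 and the median was 0.11, with a range of -0.48 to 1.02. Groups did not overlap upward in 8 (background 11.8%) and downward in 2 (background 10.5%). With the block 2 rose (background 5.1%), so none of these shares exceeded the background. In all 3 numbered pairs, however, 32 of the 81 were higher in KD (background 23%) and 9 were lower (11.1%, background 22.8%). PNO1, a factor of small subunit maturation, was at 15.1, 11.5 and 17.4 CPM in WT and 36.2, 21.8 and 31.0 CPM in KD (log2 fold change 1.02, adjusted p = 0.105 in edgeR and 0.0132 with the block). EFTUD1, a GTPase that releases a block on new large subunits, was at 23.9, 20.3 and 19.0 CPM in WT and 43.6, 33.5 and 36.6 CPM in KD (log2 fold change 0.85, adjusted p = 0.0891 in edgeR and 0.0168 with the block).

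Of 15 RNA polymerase I genes, which transcribe ribosomal RNA, 0 passed with or without the block (0 in either direction at an unadjusted p under 0.05 in edgeR), with a median of 0.06. Of 18 regulators of ribosome production, from the mTOR and MYC pathways, 16 were tested and 0 passed in edgeR (1 lower and 1 higher at an unadjusted p under 0.05), with a median of -0.02. MYC, the transcription factor that drives ribosomal genes, was at 101, 67.5 and 69.3 CPM in WT and 77.7, 86.7 and 85.8 CPM in KD, with a log2 fold change of 0.07 and overlapping groups. FAU and RPL36AL, ribosomal protein genes that the rule on symbols leaves out, had log2 fold changes of 0.03 and 0.01, and the groups overlapped in both.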

How the data were processed

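The study measured polyadenylated RNA from M14 cells with inducible STAG2 shRNA in 3 WT and 3 KD libraries, grouped by their labels. The authors mapped single 50-base reads of directional libraries with STAR to hg19 and deposited expected counts per gene from RSEM, not scaled between libraries. RSEM estimates how reads that fit several genes divide between them, which bears on ribosomal protein genes and their pseudogenes. The strand setting of the counting is not given in the sources used here. The ribosomal protein genes, the lists and the tests were chosen with earlier results of these data known, and the alternatives of GC and length correction were added after the data had been seen.

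Counts were rounded, filtered by filterByExpr (15605 of 57820 genes kept), scaled by TMM and tested with the quasi-likelihood test of edgeR 4.0.16 in R 4.3.3, with condition as the only term and Benjamini-Hochberg adjustment over all tested genes at a threshold of 0.05. SE is that of the log2 fold change. Alternatives were DESeq2 1.42.0, limma-voom (limma 3.58.1), other scalings, filters and thresholds, counts not rounded, pseudogene counts added to their gene, a replicate block, and leaving out each library. Library totals ran from 24895998 to 35181733 expected counts. Libraries with the same replicate number in the labels deviated together from their group means over 8932 genes (r = 0.57, 0.45 and 0.36, against -0.53 to 0.27 for other pairs), so the blocked fit is given where it changes a call. Chi-square comparisons found no copied library. The test was checked on simulated data.

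Genes were named by rule: those past the threshold, the 5 highest and 5 lowest log2 fold changes, the 5 with most counts, paralogs with their partners, the 10 smallest blocked p-values, and list genes past the threshold. Others, and the groups by place in the ribosome, were chosen after their values were seen. Coding sequences, positions and shared 50-base stretches come from GENCODE on GRCh37, and start sites from RefSeq on GRCh38.p14. Protein sequences were not used here. Some genes of the family are not reported here by name or shown in the plots by gene, and they are included in the counts, medians and adjustments.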

Additional observations from a re-analysis of the deposited data

How the results depend on the processing

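The libraries of WT and KD share replicate numbers. With the replicate block 8 ribosomal protein genes fell in place of 1, 4 pathway list genes passed in place of 0, and 6 melanocyte markers fell in place of 0. Over all tested genes 690 fell and 796 rose with the block, in place of 131 and 273. The call of STAG2 was the same with the block. The count of genes that fell was 5 with DESeq2, 2 with library totals alone, 2 with limma-voom, 2 without a filter on low counts, 0 at an adjusted p under 0.01, 5 with GC correction and the replicate block, and 0 with length correction, where 1 tested gene of the family without an annotated length could not be fitted. Without single libraries it ran from 0 to 1. It was 0 without WT replicate 3 and without each of the KD libraries. No gene rose under any of these settings. Pathway list genes that passed numbered 2 with DESeq2, 1 without a filter, 1 with GC correction and 2 with GC correction and the block. STAG2 missed the threshold with library totals alone (-2.12, adjusted p = 0.0591 in edgeR) and at an adjusted p under 0.01 (-2.12), and ran from -2.63 to -1.68 on the log2 scale without single libraries, where it also missed the threshold without WT replicate 2 (adjusted p = 0.0757 in edgeR), WT replicate 3 (0.0652), KD replicate 2 (0.168) and KD replicate 3 (0.152).

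The median log2 fold change ran from -0.24 to -0.10 for the large and from -0.55 to -0.25 for the small subunit without single libraries, with the lowest values without KD replicate 2 for the large and without WT replicate 2 for the small subunit. The median over all tested genes, at -0.03, changed sign to 0.018 with GC correction, 0.015 with GC correction and the block and 0.0075 with length correction, and ran from -0.053 to 0.022 without single libraries. Values near 0 also changed sign. RPL26L1 went to -0.0036 with upper-quartile normalization and ran from -0.086 to 0.24 without single libraries, RPL39 ran from -0.15 to 0.15, and RPS27 went to 0.027 with length correction. The ratio of RPL26L1 to RPL26 ran from -0.31 to 0.11 and that of RPL39L to RPL39 from -0.0080 to 0.28. Of 529 values of the 28 named genes under the alternatives, 498 kept direction and side of the threshold, 20 gained the threshold, 5 lost it and 6 changed sign. The cause of these changes was not tested. RPLP0 passed under 7 alternatives and missed under the rest, from 0.0525 with upper-quartile normalization. Expected counts limit what can be said of genes whose sequence is wholly shared.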

Other observations

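Rows for ribosomal protein pseudogenes held 1.55% of the summed counts of the genes and their pseudogenes. There were 814 such rows, of which 176 were above 0 in some library and 27 were tested. The row with the most counts was RPL41P1, at 447, 474 and 660 CPM in WT and 744, 446 and 452 CPM in KD, with overlapping groups. RPSAP58 was at 158, 172 and 211 CPM in WT and at 123, 135 and 130 CPM in KD, lower in every KD library as RPSA was. RPL13AP5 was at 330, 58.5 and 51.6 CPM in WT and at 161, 93.5 and 3.92 CPM in KD, a spread between libraries of one group that RPL13A did not have.

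RPLP0P2, a pseudogene row of RPLP0, went the opposite way to RPLP0. It was at 2.35, 0.609 and 2.51 CPM in WT and at 14.4, 19.0 and 15.2 CPM in KD, a log2 fold change of 3.16 (SE 0.52, adjusted p = 0.0139 in edgeR and 0.0023 with the replicate block). It was chosen after its values were seen. With pseudogene counts added to their gene, RPLP0 had a log2 fold change of -0.97 (adjusted p = 0.0649 in edgeR). Whether reads were divided differently between the 2 rows was not tested.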
